A study of Homo sapiens with 6 samples.

Results

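The mitochondrial ribosomal protein genes are the nuclear genes whose symbol is MRPL or MRPS followed by a number and, in some, by A, B or C. Taken by that pattern, with pseudogenes left out, 78 genes of the 61806 in the deposited table were members: 49 MRPL genes, named for the large subunit, and 29 MRPS genes, named for the small subunit. The RNA came from HEK293, an adenovirus-transformed line from human embryonic kidney. Poly(A) RNA was sequenced from mutant cells that carry the DNA variant rs16851030, put in by homology-directed repair with CRISPR (3 libraries), and from wild-type HEK293 cells (3 libraries). Both groups are the same line in the same medium, per the labels, and no other allele or agent is named; the editing text stands on the wild-type samples too, so the groups rest on the genotype label. The sources used here do not say whether the mutant libraries stem from 1 edited clone or from several, so the variant cannot be told apart from differences between clones. The libraries are called biological replicates without saying what was kept separate, and p-values measure the spread between them.

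Mitochondria translate the few proteins of their own genome, all of them subunits of the respiratory chain and ATP synthase, on a ribosome of their own. Its RNAs are transcribed inside the organelle, whereas its proteins are encoded in the nucleus, made in the cytosol and imported. Many of these proteins have counterparts in bacterial ribosomes, and others are found only in mitochondria. The large subunit holds the catalytic centre and the exit tunnel, and the small subunit binds messenger RNA and decodes it.

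Assigned counts ranged from 16013460 to 20349609 per library. Of the HEK293 genes looked at, vimentin (VIM) stood at 87.4 ± 1.13 FPKM in mutant cells and 153 ± 11.6 FPKM in wild-type cells (SD, n = 3 each; FPKM is fragments per kilobase of exonic length, scaled to the library's total). VIM lies on chromosome 10. Of the other HEK293 marker genes reported here, KRT18 fell, EYA1 rose and LHX1 did not pass. PAX2 was under 1 FPKM in every library and KRT8 averaged 1.12 FPKM in mutant cells and 0.503 FPKM in wild-type cells. Of 7 markers of other cells, HBB had 0 counts in all 6 libraries, PTPRC had 1, 1 and 0 counts in mutant libraries and 1, 0 and 0 counts in wild-type libraries, ALB, PECAM1, NPHS1 and DES averaged under 0.25 FPKM in both groups, and COL1A1 of fibroblasts stood at 4.93 ± 0.192 FPKM in mutant cells and 2.90 ± 0.124 FPKM in wild-type cells (SD, n = 3 each). The part of these markers in the results was not tested. Counts per gene do not show the edited base, so the genotype rests on the labels.

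Most mitochondrial ribosomal protein genes were lower in mutant cells, in both subunits and by a small amount. Of 77 members tested, 49 (63.6%) fell and 3 (3.90%) rose at an adjusted p below 0.05 in edgeR's quasi-likelihood test, and 25 did not pass. Over all 12550 tested genes, 58.0% were called, 28.7% lower and 29.4% higher. Members had a median level of 22.9 FPKM, against 6.56 FPKM over all tested genes, and among genes with a mean of at least 5 FPKM 31.4% were called lower and 31.5% higher. The 3 mutant values lay below all 3 wild-type values for 49 members, against 28.1% of all tested genes, and above them for 5 members, against 34.8%. The median log2 fold change was -0.27 over the members and 0.00 over all tested genes (-7e-04 before rounding). Of the 49 members that fell, 45 differed by less than 1.5-fold, and the largest fall was to 0.645 of the wild-type level. Counts behind the values were 1086 per member and library at the median, and the median standard error (SE) of a log2 fold change was 0.06.

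**Figure D1:**
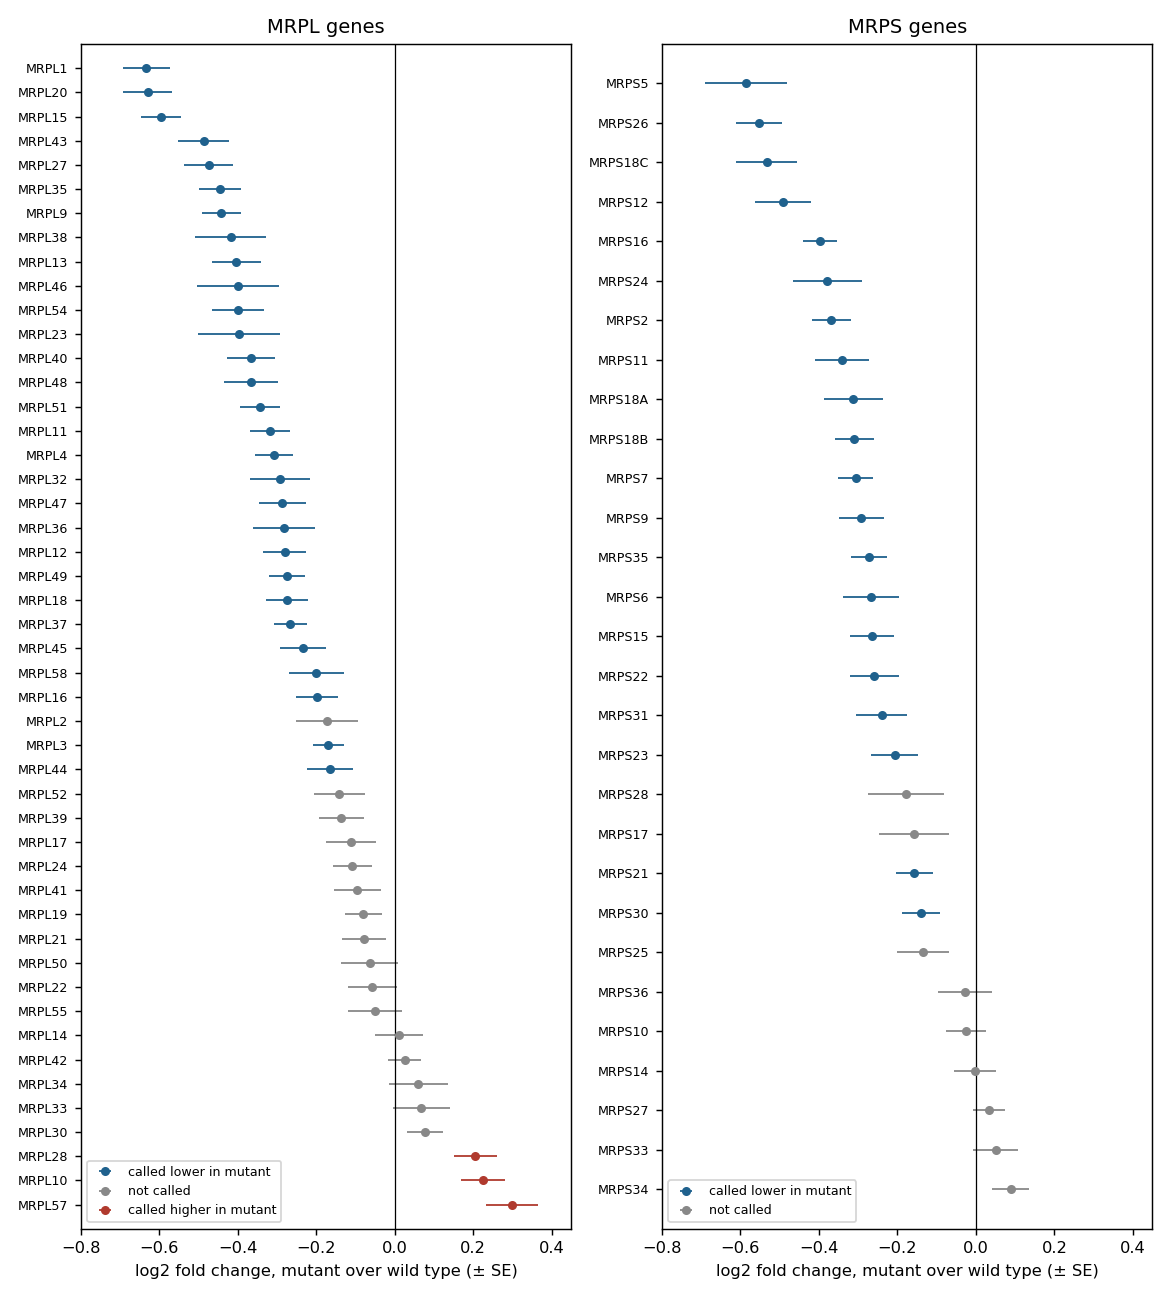
Log2 fold change of each tested MRPL and MRPS gene, mutant over wild type, with its standard error as a horizontal bar and the call in colour. Of 77 genes, 49 lie left of 0 as called lower, and MRPL57, MRPL10 and MRPL28 are the 3 called higher.

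MRPL and MRPS genes had similar median changes, and the difference between them was not tested. Of 48 tested MRPL genes, 29 (60.4%) fell, 3 rose and 16 did not pass, with a median log2 fold change of -0.25. Of 29 MRPS genes, 20 (69.0%) fell, 0 rose and 9 did not pass, with a median of -0.27. The difference between these medians, 0.02, ranged from -0.04 to 0.06 over the alternatives and took either sign. When the log2 values were quantile-normalized the MRPL median was -0.15, and it was -0.20 for MRPS genes. Without members that share at least 5% of their exonic bases with another gene, the medians were -0.20 for MRPL genes, where 17 of 31 were lower, and -0.16 for MRPS genes, where 8 of 13 were lower.

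Summed over the members, MRPL transcripts had 1528, 1604 and 1559 FPKM in mutant libraries, against 1759, 1766 and 1856 FPKM in wild-type libraries. The highest mutant sum lay below the lowest wild-type sum. Summed MRPS transcripts had 772, 813 and 773 FPKM in mutant libraries, against 881, 876 and 916 FPKM in wild-type libraries, again without overlap. Mutant sums were therefore 0.872 of the wild-type sums for the large subunit and 0.882 for the small. The ratio of the MRPL to the MRPS sum was 1.99 ± 0.0235 in mutant cells and 2.01 ± 0.0148 in wild-type cells (SD, n = 3 each), and the ranges of the 2 groups overlapped. The level of the middle MRPL gene in each library went the other way, at 25.8 ± 1.91 FPKM in mutant cells and 24.8 ± 1.25 FPKM in wild-type cells (SD, n = 3 each), with overlapping ranges. The middle MRPS gene stood at 18.6 ± 0.688 FPKM in mutant cells and 22.6 ± 0.976 FPKM in wild-type cells (SD, n = 3 each). Members took between 0.533 and 0.558% of counts in mutant libraries, against between 0.606 and 0.631% in wild-type libraries, with mutant replicate 2 the highest of its group.

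**Figure D2:**
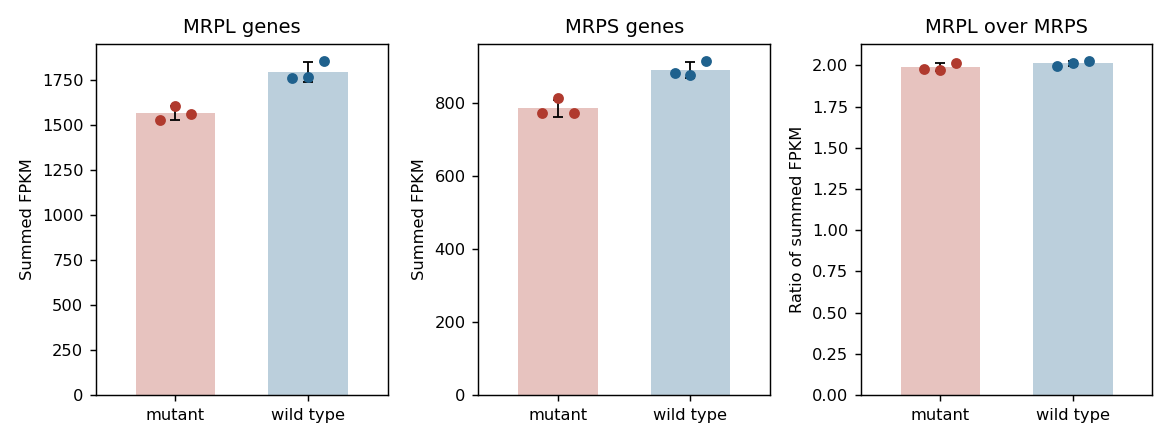
Summed FPKM of the 49 MRPL genes and of the 29 MRPS genes in each library, and the ratio of the sums; bars are means, points are libraries and error bars are the SD of 3 libraries. Both sums are lower in all 3 mutant libraries, and the ratio stays between 1.97 and 2.03 in all 6.

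The stretches before the members' transcription starts were also compared. RefSeq promoter windows of GRCh38.p14, from 250 bases before to 50 after a start, matched 69 of the 78 members. MRPL2, MRPL10, MRPL13, MRPL15, MRPL21, MRPL23, MRPL35, MRPS28 and MRPS36 had no entry. The letters CCGGAAG, the core recognised by ETS factors such as GABP, a known activator of genes for mitochondrial proteins, were found on either strand in 30 of the 69 (43.5%). They were found in 12.2% of all 27305 genes of the table and in 23.9% of its 8845 protein-coding genes that were tested here. The first base of a match lay within 80 bases before a start in 23 members. The riser MRPL28 has a match whose first base is position 8 after its start, and MRPL1, which fell, has none in its window. Neither is among the 8 stretches printed here, which were picked without a fixed rule. The 8 stretches below, positions -80 to -1, show such matches in capitals for genes that fell, for the MRPS34 gene that did not pass, and for MRPL57, a riser with no match.
MRPL20 (chr1:1407294-1407373, minus strand): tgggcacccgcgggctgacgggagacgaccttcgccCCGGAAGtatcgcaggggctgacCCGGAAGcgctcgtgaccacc
MRPL27 (chr17:50373185-50373264, minus strand): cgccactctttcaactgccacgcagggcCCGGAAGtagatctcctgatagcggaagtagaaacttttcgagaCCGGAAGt
MRPL43 (chr10:100987498-100987577, minus strand): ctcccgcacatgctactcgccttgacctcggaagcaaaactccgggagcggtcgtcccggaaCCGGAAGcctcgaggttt
MRPL3 (chr3:131502972-131503051, minus strand): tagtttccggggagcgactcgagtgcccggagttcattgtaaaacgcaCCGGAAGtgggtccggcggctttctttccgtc
MRPL57 (chr13:21176578-21176657, plus strand): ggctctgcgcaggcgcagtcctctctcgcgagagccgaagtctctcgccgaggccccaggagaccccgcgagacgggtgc
MRPS26 (chr20:3045972-3046051, plus strand): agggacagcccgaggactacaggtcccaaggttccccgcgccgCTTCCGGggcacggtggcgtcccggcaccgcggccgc
MRPS31 (chr13:40771191-40771270, minus strand): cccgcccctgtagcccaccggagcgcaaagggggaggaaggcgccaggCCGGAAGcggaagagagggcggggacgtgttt
MRPS34 (chr16:1773135-1773214, minus strand): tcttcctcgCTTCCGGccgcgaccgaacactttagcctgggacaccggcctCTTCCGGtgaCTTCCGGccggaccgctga

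MRPL20 and MRPL27 each carried a pair of matches in these stretches and MRPS34 carried 3. Of the 29 tested members with the ETS letters, 22 fell and 1 rose, with a median log2 fold change of -0.27. Of the 39 without them, 23 fell and 1 rose, with a median of -0.27. A match to AAGATGGCG, the core of the factor YY1, was found in 13 of 69 members (18.8%), against 2.14% of all genes and 5.22% of tested protein-coding genes. In 10 of them it began within 50 bases after a start. Of the 13, 8 (61.5%) fell, against 37 of the 55 tested members without such a match (67.3%). GCGCATGCG, the letters of NRF1, was found in 4.35% of members and 4.5% of tested protein-coding genes, CACGTG (the E-box) in 13% and 13.1%, ACTACAA (ZNF143) in 11.6% and 5.09%, and GGGCGG (SP1) in 60.9% and 80%, a lower share in members. All matches were exact, on both strands, and 2 matches of different motifs overlapped. A match is a description of these letters and not a measured binding site.

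Among large-subunit genes with bacterial counterparts, MRPL1, MRPL20 and MRPL15 had the largest falls. By rule, the largest falls were named only among called members whose groups did not overlap. MRPL1, which forms the mobile stalk where spent tRNA leaves, had 23.51, 22.84 and 23.05 FPKM in mutant libraries and 33.90, 35.61 and 35.78 FPKM in wild-type libraries. The groups lay far apart, and the log2 fold change was -0.63 (SE 0.06, adjusted p = 7.31e-08). The gene (ENSG00000169288) lies on chromosome 4 at 77862830 to 77952785 of GRCh38, on the plus strand. MRPL20, whose bacterial relative binds ribosomal RNA early in assembly, had 23.67, 28.49 and 26.43 FPKM in mutant libraries and 37.25, 40.30 and 41.13 FPKM in wild-type libraries. Mutant replicate 1 was the lowest, and the log2 fold change was -0.63 (SE 0.06, adjusted p = 1.75e-07); 15.5% of its exonic bases overlap other genes. MRPL15, on chromosome 8, had 48.28, 49.19 and 48.32 FPKM in mutant libraries and 67.22, 74.97 and 73.15 FPKM in wild-type libraries. Its mutant values lay within 1 FPKM of each other, and the log2 fold change was -0.60 (SE 0.05, adjusted p = 2.19e-08).

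MRPL27, whose bacterial relative reaches into the catalytic centre, had 17.65, 17.62 and 17.04 FPKM in mutant libraries and 21.58, 25.01 and 24.53 FPKM in wild-type libraries (log2 fold change -0.47, SE 0.06). MRPL35, another protein with a bacterial counterpart, had 15.39, 14.94 and 14.71 FPKM in mutant libraries and 19.72, 19.50 and 20.78 FPKM in wild-type libraries (log2 fold change -0.45, SE 0.05). Both sets of mutant values lay below every wild-type value, as the rule for naming the largest falls asks. That rule also takes only called members, and the adjusted p was 4.12e-06 for MRPL27 and 1.20e-06 for MRPL35. MRPL3, whose bacterial relative reaches towards the catalytic centre, was among the 3 most abundant MRPL transcripts and differed less. It had 89.83, 90.41 and 88.81 FPKM in mutant libraries and 96.13, 97.87 and 101.82 FPKM in wild-type libraries (log2 fold change -0.17, SE 0.04, adjusted p = 0.00130). This call was lost after quantile normalization (log2 fold change -0.07, adjusted p = 0.0508; 2.95e-05 to 0.0508 over the alternatives).

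The stalk that recruits translation factors is built on MRPL10 with several copies of MRPL12, and their transcripts moved in opposite directions. MRPL10 had 27.43, 27.91 and 27.81 FPKM in mutant libraries and 22.49, 21.89 and 25.17 FPKM in wild-type libraries. It rose by 0.22 on the log2 scale (SE 0.06, adjusted p = 0.00254). MRPL12 averaged 72.5 ± 3.73 FPKM in mutant cells and 86.0 ± 3.99 FPKM in wild-type cells (SD, n = 3 each) and fell by 0.28 on the log2 scale (SE 0.05, adjusted p = 2.68e-04). It is named outside the rule, after its value was seen, and 68.2% of its exonic bases overlap another annotated gene, so its count is uncertain. MRPL58, a peptidyl-tRNA hydrolase built into the large subunit that can free stalled chains, had 30.20, 32.70 and 29.98 FPKM in mutant libraries and 33.41, 33.92 and 36.97 FPKM in wild-type libraries. The gap between the groups was small (log2 fold change -0.20, SE 0.07, adjusted p = 0.0197). The MRPL58 call was lost without mutant replicate 1, mutant replicate 3 or wild-type replicate 3, with adjusted p of 0.0722, 0.0775 and 0.0971. It was also lost with upper-quartile factors (0.0576), after quantile normalization (0.0714), at a mean of at least 5 FPKM (0.0593) and on TPM (0.0579); the lowest adjusted p of any alternative was 0.00797 and the highest 0.0971.

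Among large-subunit proteins found only in mitochondria, the abundant MRPL37 and MRPL51 fell, and MRPL57 alone was called higher. MRPL37, the most abundant MRPL transcript, had 103.53, 109.51 and 102.94 FPKM in mutant libraries and 122.42, 121.06 and 127.95 FPKM in wild-type libraries (log2 fold change -0.27, SE 0.04, adjusted p = 2.54e-05). MRPL51 had 81.39, 78.28 and 74.86 FPKM in mutant libraries and 91.25, 97.00 and 102.89 FPKM in wild-type libraries (log2 fold change -0.34, SE 0.05, adjusted p = 1.66e-05), and 31.3% of its exonic bases overlap NCAPD2 or another gene. In both genes every mutant library was under every wild-type library. MRPL57, a protein of the same kind with 5 pseudogenes in the table, had the highest fold change of the members. Its values were 19.96, 18.60 and 18.65 FPKM in mutant libraries and 16, 14.31 and 15.16 FPKM in wild-type libraries, and it rose by 0.30 on the log2 scale (SE 0.07, adjusted p = 8.87e-04). Taken as classes over both subunits, 31 of 48 tested members with bacterial counterparts fell and 2 rose (median -0.28). Of 29 members without one, 18 fell and 1 rose (median -0.21), and MRPS36 was counted among these 29. The difference between the classes was not tested.

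**Figure D3:**
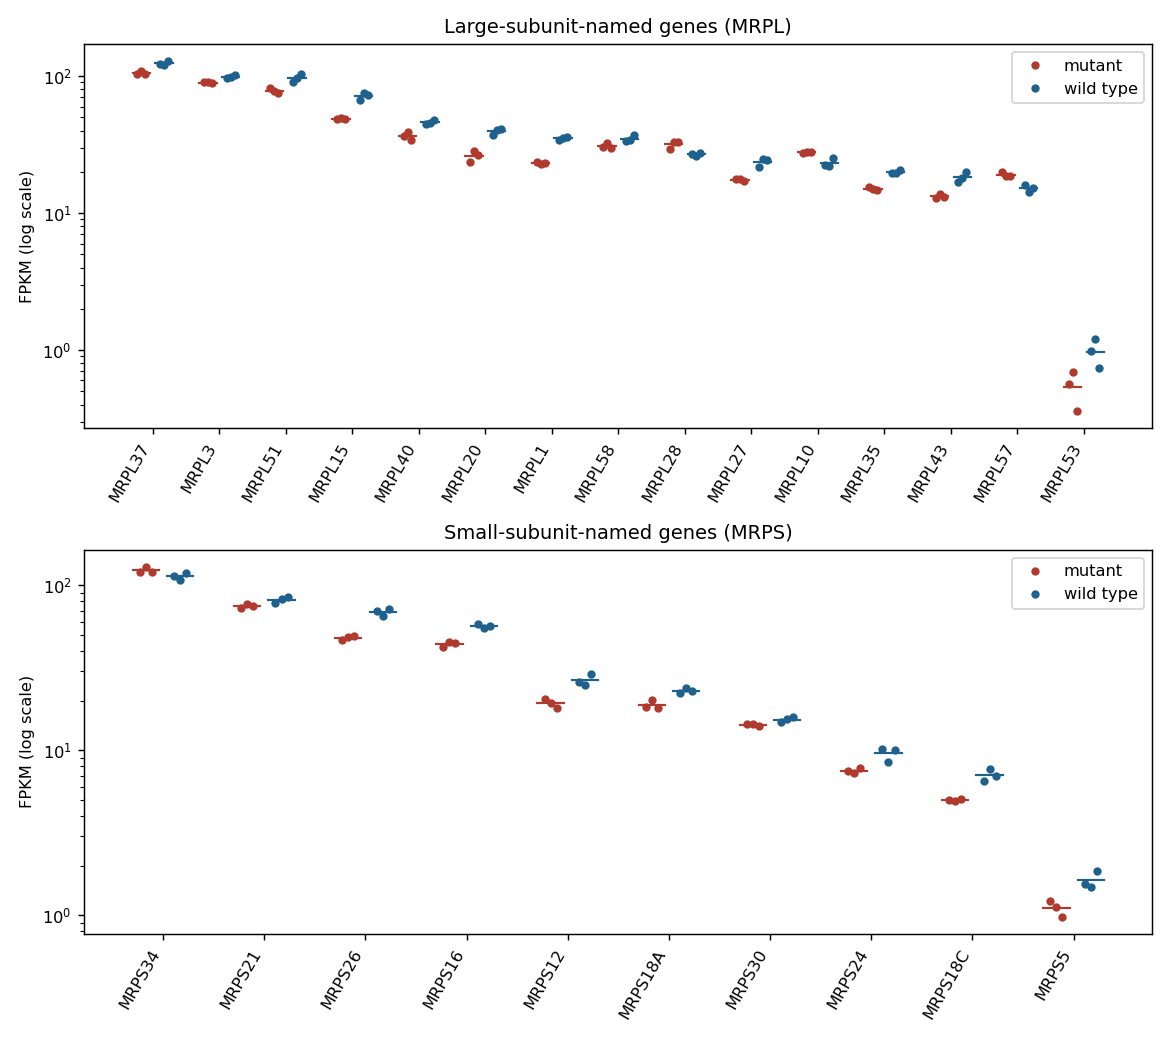
FPKM in each library, on a log scale, of the MRPL and MRPS genes named by rule; points are libraries and short lines are means of 3, with mutant left of wild type. MRPL57, MRPL10 and MRPL28 sit higher in all mutant libraries, as does MRPS34, which did not pass the test, and MRPL53 is at the low end with 0.36 to 1.21 FPKM.

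In the small subunit, where 20 of 29 genes fell, the falls included proteins of the decoding and messenger-entry regions. Regions of the subunit were not compared. MRPS12, the counterpart of the bacterial decoding protein that streptomycin resistance maps to, had 20.34, 19.41 and 18.09 FPKM in mutant libraries and 25.87, 24.74 and 29 FPKM in wild-type libraries (log2 fold change -0.49, SE 0.07, adjusted p = 1.44e-05), with 16.3% of its exonic bases shared with SARS2 or another gene. MRPS5, of the messenger entry site, had 1.22, 1.12 and 0.98 FPKM in mutant libraries and 1.54, 1.49 and 1.86 FPKM in wild-type libraries (log2 fold change -0.59, SE 0.11, adjusted p = 1.20e-04). MRPS24, also of the entry site, had 7.50, 7.31 and 7.78 FPKM in mutant libraries and 10.20, 8.46 and 10.05 FPKM in wild-type libraries (log2 fold change -0.38, SE 0.09, adjusted p = 0.00122). No mutant value reached a wild-type value in any of these 3 genes, as the rule for naming the largest falls asks. Over all tested genes, 28.1% had every mutant value below every wild-type value. MRPS5 rested on 216 to 453 counts per library. Its exonic length in the table is 13738 bases, so its FPKM is low against its counts, and levels of different members are comparable only as far as these lengths, 582 to 19524 bases, are. Of the MRPS24 exonic bases, 23.2% are shared with the read-through gene URGCP-MRPS24 on the same strand.

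Of the abundant small-subunit transcripts, MRPS34 did not pass and MRPS21 fell by a small amount. MRPS34, a mitochondrial protein of this subunit, had 120.69, 128.60 and 121.01 FPKM in mutant libraries and 113.63, 107.66 and 119.07 FPKM in wild-type libraries. The groups did not overlap, yet the gene did not pass (log2 fold change 0.09, SE 0.05, adjusted p = 0.122, 0.00223 to 0.553 over the alternatives). MRPS21, the most pseudogene-rich member with 8 in the table, had 72.96, 76.87 and 74.65 FPKM in mutant libraries and 78.01, 82.09 and 84.54 FPKM in wild-type libraries (log2 fold change -0.16, SE 0.05, adjusted p = 0.00837). Its call was lost after quantile normalization (adjusted p = 0.382) and on TPM (adjusted p = 0.0845), in a range of 0.00108 to 0.382.

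The 3 genes named MRPS18 encode related proteins at different places in the ribosome, and all of them fell, under every alternative too. MRPS18C had 5.01, 4.93 and 5.04 FPKM in mutant libraries and 6.54, 7.69 and 6.98 FPKM in wild-type libraries (log2 fold change -0.53, SE 0.08, adjusted p = 1.26e-05), and 40.2% of its exonic bases overlap ABRAXAS1 or another gene. MRPS18B, named after its value was seen, changed by -0.31 (SE 0.05, adjusted p = 3.42e-05). MRPS18A, which sits in the large subunit of the mammalian ribosome despite its name, had 18.38, 20.20 and 18.08 FPKM in mutant libraries and 22.10, 23.93 and 22.78 FPKM in wild-type libraries (log2 fold change -0.31, SE 0.08, adjusted p = 0.00171), and 47% of its exonic bases overlap RSPH9 or another gene. MRPS30 is likewise a large-subunit protein in the structures, and had 14.33, 14.39 and 13.96 FPKM in mutant libraries and 14.78, 15.40 and 15.83 FPKM in wild-type libraries. Its difference was small (log2 fold change -0.14, SE 0.05, adjusted p = 0.0184) and the call was lost without mutant replicate 3 (0.0769) or wild-type replicate 3 (0.0737), and under several scalings, with adjusted p between 0.00559 and 0.206. With subunits taken from the structures, and MRPS36, now placed in the oxoglutarate dehydrogenase complex, left out, 31 of 50 large-subunit and 18 of 26 small-subunit genes fell. MRPS36 itself did not pass (log2 fold change -0.03, SE 0.07, adjusted p = 0.745).

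**Figure D4:**
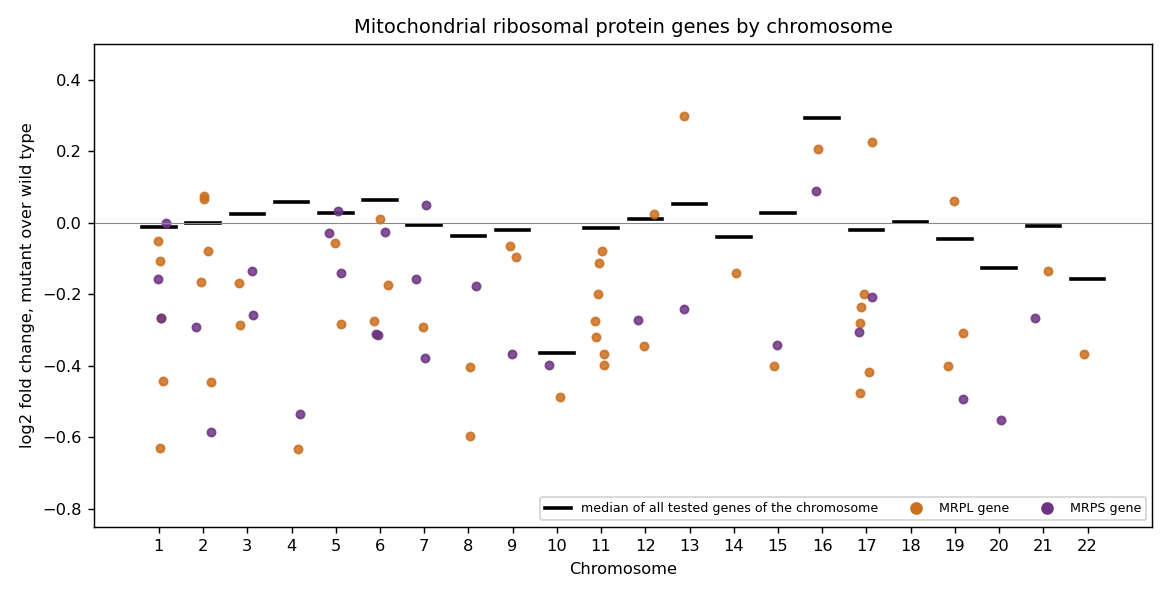
Log2 fold change of each tested MRPL and MRPS gene by chromosome, with the median of all tested genes of that chromosome as a black line. The chromosome 10 and 16 medians stand at -0.36 and 0.29, and the members' median lies below the line on all 21 chromosomes that hold a member. On chromosomes 14, 20 and 22 the members' median is the value of 1 gene.

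Members lie on 21 chromosomes, and 6 of them lie on chromosomes 10, 16, 20 and 22, where many neighbouring genes moved together. On chromosome 10, all tested genes had a median log2 fold change of -0.36. MRPL43 had 12.94, 13.88 and 13.19 FPKM in mutant libraries and 17, 17.93 and 19.89 FPKM in wild-type libraries (log2 fold change -0.49, SE 0.06), and 36.9% of its exonic bases overlap other genes, SEMA4G above all. MRPS16, a small-subunit protein with a bacterial counterpart, had 42.46, 45.16 and 44.41 FPKM in mutant libraries and 58.00, 55.40 and 56.58 FPKM in wild-type libraries (log2 fold change -0.40, SE 0.04). MRPL43 lay 0.12 below the chromosome's median and MRPS16 0.03 below it. On chromosome 16 the median was 0.29, and MRPL28 had 29.47, 32.77 and 33.20 FPKM in mutant libraries and 27.08, 26.08 and 27.66 FPKM in wild-type libraries (log2 fold change 0.21, SE 0.05, adjusted p = 0.00341). MRPL28 and MRPS34 were thus both below the median of their chromosome.

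MRPS26, a mitochondrial protein of the small subunit, lies on the short arm of chromosome 20 at 3046052 to 3048250. It had 46.24, 48.76 and 49.11 FPKM in mutant libraries and 69.85, 64.71 and 71.86 FPKM in wild-type libraries (log2 fold change -0.55, SE 0.06, adjusted p = 2.99e-07). The 25 nearest tested genes had a median of -0.64, against -0.13 for the chromosome. MRPL40, on chromosome 22, had 36.58, 39.00 and 34.29 FPKM in mutant libraries and 44.74, 45.83 and 47.94 FPKM in wild-type libraries (log2 fold change -0.37, SE 0.06, adjusted p = 6.15e-05), where the 25 nearest genes had a median of -0.20. The part of the chromosome in these values was not tested. Outside the 4 chromosomes, 45 of 71 tested members (63.4%) fell and 2 rose, with a median of -0.26. Of those 45, 16 lay among 25 neighbours whose median was above 0. Of all 77, 68 lay below the median of their own chromosome and 65 below the median of their 25 nearest tested genes.

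MRPL46, a large-subunit protein, and MRPS11, a small-subunit protein, are read in opposite directions on chromosome 15 from starts 63 bases apart, and both fell. Of MRPL46, 11.3% of the exonic bases overlap another gene. It had 1.88, 1.64 and 1.96 FPKM in mutant libraries and 2.44, 2.27 and 2.37 FPKM in wild-type libraries (log2 fold change -0.40, SE 0.10, adjusted p = 0.00312). MRPS11 had 6.01, 6.49 and 6.49 FPKM in mutant libraries and 7.59, 8.30 and 7.61 FPKM in wild-type libraries (log2 fold change -0.34, SE 0.07, adjusted p = 3.23e-04). The pair was looked up after the values were seen.

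MRPL53 was the single member below the expression minimum. It had 8, 8 and 4 counts in mutant libraries and 12, 14 and 9 counts in wild-type libraries, or 0.57, 0.69 and 0.36 FPKM in mutant libraries and 0.98, 1.21 and 0.74 FPKM in wild-type libraries. In GENCODE release 29, 45.2% of its 1344 exonic bases overlap CCDC142 or another gene on the same strand. Its FPKM values rest on 685 exonic bases, and no test of it is given at this depth. Pseudogenes of 36 members are listed in the table. Their counts came to over 1% of the member's own for MRPS31 (6.31%) and MRPL45 (5.14%), 2 members named for this value, and to less for the others. MRPS31 changed by -0.24 (SE 0.07) and MRPL45, which anchors the exit tunnel to the inner membrane, by -0.23 (SE 0.06). With strand use in counting not given, members whose exons cross another gene remain uncertain. In GENCODE release 29, 34 members had at least 5% of their exonic bases shared. Named with values but without this share were MRPS16 (14.85%), MRPS11 (9.17%), MRPS5 (8.19%), MRPL28 (7.33%) and MRPL37 (6.79%).

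**Figure D5:**
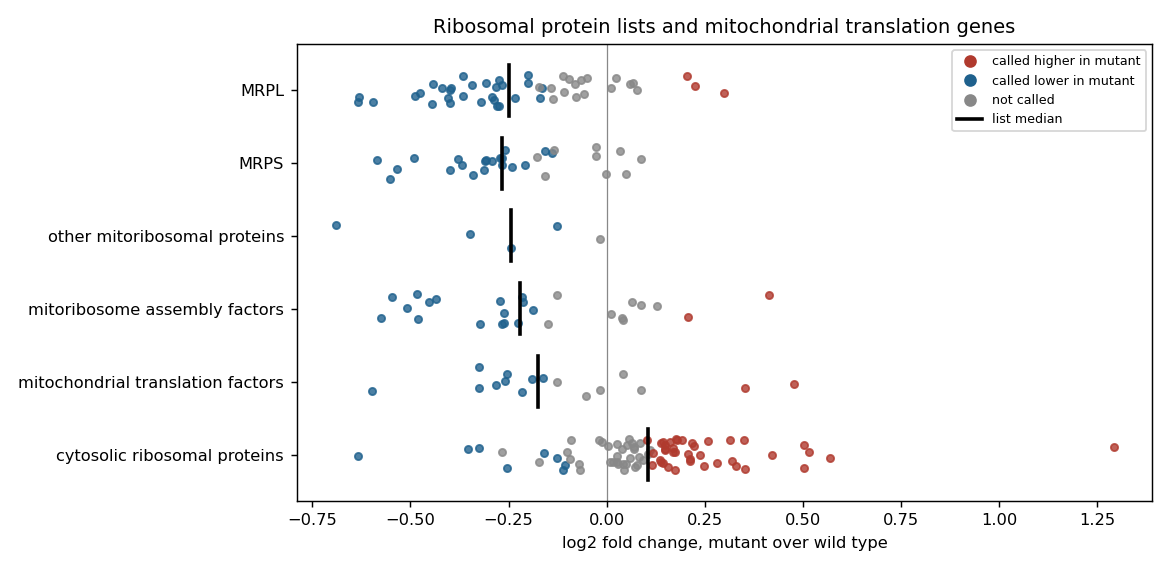
Log2 fold change of every tested gene in 6 lists, mutant over wild type, coloured by call, with the list median as a black bar. The medians of the mitochondrial lists lie between -0.27 and -0.18, and the median of the cytosolic ribosomal proteins at 0.11.

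Among genes that build or serve the mitochondrial ribosome without an MRP name, more fell than rose in each of 3 lists, but not for the translation factors under every alternative. Of 5 further ribosomal proteins, 4 fell and 0 rose (median -0.24). CHCHD1, on chromosome 10, had 22.53, 23.83 and 20.63 FPKM in mutant libraries and 35.41, 31.98 and 38.37 FPKM in wild-type libraries (log2 fold change -0.69, SE 0.07). GADD45GIP1 changed by -0.35, AURKAIP1 by -0.24 and DAP3 by -0.13, and PTCD3, at -0.02, did not pass. Of 26 tested assembly factors, 16 (61.5%) fell and 2 rose (median -0.22), against 28.7% lower and 29.4% higher over all tested genes. RCC1L, a factor of large-subunit assembly, averaged 13.9 ± 0.141 FPKM in mutant cells and 20.2 ± 0.528 FPKM in wild-type cells (SD, n = 3 each; log2 fold change -0.58). The RNA granule protein GRSF1 changed by -0.45, the GTPase MTG2 on chromosome 20 by -0.51 and the pseudouridine synthase TRUB2 by -0.44. TFB1M, which methylates the small-subunit RNA, rose by 0.41 and the methyltransferase METTL15 by 0.21; both are named after their values were seen.

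Of 16 factors of mitochondrial translation, 9 (56.2%) fell and 2 rose (median -0.18), against 28.7% lower and 29.4% higher over all tested genes. The number lower was 6 without mutant replicate 3, without wild-type replicate 3, with upper-quartile factors and on TPM. At a mean of at least 5 FPKM, 3 were lower and 3 higher of 11 tested (median -0.08). Among all genes at that minimum, 31.4% were called lower and 31.5% higher, so the list showed no excess of lower genes there. TUFM, the elongation factor that delivers tRNA, lies on chromosome 16 and rose to 233 ± 3.11 FPKM in mutant cells, against 178 ± 5.22 FPKM in wild-type cells (SD, n = 3 each; log2 fold change 0.35). MTFMT, which formylates the initiator tRNA, rose by 0.48, SLIRP, an RNA stability factor, changed by -0.60, and MRRF, the recycling factor, by -0.26. The large ribosomal RNA, MT-RNR2, had 606, 734 and 830 FPKM in mutant libraries and 995, 1254 and 1016 FPKM in wild-type libraries (log2 fold change -0.62, SE 0.09, adjusted p = 1.19e-05). MT-RNR1, the small one, changed by -0.39 with overlapping groups (SE 0.16, adjusted p = 0.0478). Its call was lost without mutant replicate 1, mutant replicate 2, wild-type replicate 1 or wild-type replicate 2, with log2 fold changes of -0.18, -0.33, -0.41 and -0.23 and adjusted p of 0.31, 0.159, 0.0537 and 0.244. It was also lost with library totals, upper-quartile factors, a mean of at least 5 FPKM, DESeq2 and every limma setting, with adjusted p between 0.0666 and 0.33. Without mutant replicate 3 the log2 fold change was -0.69 (adjusted p = 1.21e-04). Poly(A) selection samples these RNAs only in part. The 16 tested genes of the mitochondrial genome, the ribosomal RNAs among them, had a median log2 fold change of -0.61. The part of this in the change of the ribosomal RNAs was not tested. Cytosolic ribosomal protein genes, taken by symbol, gave other counts: of 81 tested, 40 rose, 8 fell and 33 did not pass. Called higher were 49.4% of them, against 29.4% of all tested genes, and called lower 9.88%, against 28.7%. Their median was 0.11 and stayed above 0 under every alternative (0.07 to 0.18). Without mutant replicate 2, 27 rose and 12 fell, and with no expression minimum 34 rose and 14 fell. The smallest adjusted p belonged to RPL22L1, RPL13, RPL3 and RPL13A, which rose by 1.29, 0.57, 0.50 and 0.51 on the log2 scale. RPL13 lies on chromosome 16 and RPL3 on chromosome 22.

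The MRPL and MRPS medians stayed below 0 under every alternative tried, while the counts over all genes moved with the scaling. Of all called genes 50.6% were higher in mutant cells in the quasi-likelihood test (3686 higher, 3598 lower) and 62.4% on TPM (4191 higher, 2525 lower), where the median of all genes was 0.07. On TPM, 27 MRPL and 16 MRPS genes were lower and 4 and 1 were higher.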

How the data were processed

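Poly(A) RNA of 6 HEK293 libraries (3 mutant, 3 wild type) was sequenced. Per the file headers, each gene of the deposited table has a raw count and an FPKM value in every library. Per the submitters' processing notes, cutadapt, HISAT2 version 2.0.1, HTSeq and GRCh38 were used; the sources used here give neither the annotation release nor the strandedness. The authors' FPKM equalled counts divided by exonic size and by assigned counts, on the usual FPKM scale, within 0.005.

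Genes with a mean of at least 1 FPKM (12550) were tested with edgeR 4.0.16 (quasi-likelihood F-test, TMM factors, genotype as the single factor, two-sided) and adjusted by the Benjamini-Hochberg method over all of them. The threshold for a call was 0.05. Log2 fold changes are mutant over wild type; each SE was derived from the F statistic. The fit was tested on simulated data. The common biological coefficient of variation was 0.0478. Alternatives used DESeq2 1.42.0 and limma 3.58.1 on log2(FPKM + 1), log2(FPKM + 0.1), quantile-normalized and TPM values, which understate changes of low genes. Exonic overlaps came from GENCODE release 29 and promoter sequences from RefSeq (GRCh38.p14). Exonic lengths in the GENCODE release differ from those behind the FPKM values for several members, such as 6719 against 13738 bases for MRPS5. The overlap shares describe that release and may differ for the bases counted.

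The members and lists were chosen with earlier results of these data known. Named genes were, within each subunit, up to 6 of the largest rises and 6 of the largest falls among called members without overlap between groups, the 3 most abundant, members on chromosomes 10, 16, 20 and 22, MRPS30, MRPS18A, MRPL58 and untested members, plus up to 4 called genes per list. A marker gene of the HEK293 list is not reported here.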

Additional observations from a re-analysis of the deposited data

How the results depend on the processing

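Of the values of single named members under the alternatives, 383 kept their direction and their side of the threshold. Another 19 kept the direction but lost the call, 5 gained one and none turned round. Many of these members were named for called and large changes in these data, so the tally does not describe the other members. The 5 gains were all MRPS34, which made 1 MRPS gene higher, against 0, with upper-quartile factors, library totals, quantile normalization, a mean of at least 5 FPKM and TPM. The MRPL median was -0.15 after quantile normalization, -0.19 at a mean of at least 5 FPKM and -0.18 on TPM, and the MRPS median was -0.20 after quantile normalization, -0.21 on log2(FPKM + 1) and -0.19 on TPM. Among members with under 5% exonic overlap, 17 MRPL and 8 MRPS genes were lower and the MRPS median was -0.16; fewer members enter there. This setting and TPM were chosen after seeing the data, and otherwise the cause was not tested. Leaving out 1 library at a time gave 27 to 30 lower MRPL and 19 to 21 lower MRPS genes, medians of -0.28 to -0.20 for MRPL and -0.29 to -0.25 for MRPS, and a difference of medians of -0.01 to 0.06. With the replicate number as a block, 29 MRPL and 20 MRPS genes were lower (medians -0.25 and -0.26), with no named call changed. Same-numbered libraries had correlations of deviations of 0.0039, -0.0435 and -0.0128, so the numbers do not pair them. With 3 libraries a group, the median SE of a member's log2 fold change was 0.06. MRPL53, at 4 to 14 counts per library, was too low to be tested with the minimum of 1 FPKM.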

Other observations

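Of 7 transcripts named for their position beside a member, MRPL20-AS1 had the most counts, 469 to 543 per library. Antisense to the lower MRPL20, it had 10.23, 11.10 and 11.57 FPKM in mutant libraries and 11.95, 12.18 and 11.41 FPKM in wild-type libraries, groups that overlap. MRPL20-DT, read away from the same gene, had 1.84, 1.91 and 2.67 FPKM in mutant libraries and 2.49, 2.18 and 2.18 FPKM in wild-type libraries. MRPS30-DT had 0.58, 0.58 and 0.62 FPKM in mutant libraries and 0.34, 0.37 and 0.26 FPKM in wild-type libraries, from 22 to 56 counts per library. Its values were higher in all mutant libraries, while MRPS30 was slightly lower in them. MRPS30-DT, with a mean of 0.458 FPKM, was under the 1 FPKM minimum and not tested. Of all tested genes, 34.8% had every mutant value above every wild-type value. MRPS35-DT, MRPL23-AS1, MRPS9-AS1 and MRPS9-AS2 had 0 to 12 counts per library. Without strand information, reads of antisense partners cannot be told apart. These transcripts were looked up after the values of the members were seen.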
